A study of Mus musculus with 15 samples.

Results

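The angiopoietin-Tie and VEGF genes examined here are 10 genes chosen by name: the ligands Angpt1, Angpt2, Vegfa and Vegfb, the receptors Tek, Tie1, Kdr, Flt1 and Flt4, and the co-receptor Nrp1. All 10 were found among the 22526 gene symbols of the deposited FPKM table (fragments per kilobase of exon and per number of mapped fragments), and all 10 passed the filter of a mean of at least 1 FPKM. They were measured by bulk RNA sequencing of cerebral vessels from wild type C57BL/6 mice aged 8 months, in 3 groups of 5 libraries. LH3-AL mice received a stereotactic injection of an adeno-associated virus (AAV) with LH3, a lysyl hydroxylase that Plod3 encodes, and were treated with AngII (angiotensin II, a peptide that raises blood pressure) and L-NAME (which inhibits nitric oxide synthases). GFP-AL mice received an AAV carrying green fluorescent protein and the same drugs. GFP-Veh mice received the GFP virus and saline. Every mouse therefore carried a virus, and there was no group with the LH3 virus and saline. The sources used here do not give the promoter that drives the transgenes or the injection site. The labels do not say if a mouse gave 1 library, so the p-values measure the spread between these samples, which may be technical.

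Angpt1 and Angpt2 are secreted ligands of the receptor tyrosine kinase Tek, also called Tie2, which endothelial cells carry beside its relative Tie1. Angpt1, made mainly by pericytes and other perivascular cells, activates Tek and stabilises vessels, whereas Angpt2, made by endothelial cells, often blocks that signal and loosens the vessel wall. VEGF proteins act on Flt1, Kdr and Flt4, the VEGF receptors named VEGFR1, VEGFR2 and VEGFR3, and Kdr carries most of the signal for endothelial growth and permeability in blood vessels. In the brain these pathways govern vessel growth and the tightness of the blood-brain barrier.

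The members did not move as a block. In GFP-AL against GFP-Veh vessels Angpt2 and Flt4 rose, and Tek, Nrp1, Kdr, Angpt1 and Vegfb fell. In LH3-AL against GFP-AL vessels Angpt2 and Flt4 fell, and Tek, Nrp1 and Angpt1 rose. The 2 comparisons share the GFP-AL libraries, so opposite signs between them are not independent of each other. In LH3-AL against GFP-Veh vessels no member passed the test.

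Promoter windows from RefSeq (GRCm38.p6, the 250 bases before the annotated start) were matched for 8 of the 10 members, all but Angpt1 and Angpt2. The windows of 4 receptors are shown because their genes moved in unlike directions in the same vessels: Nrp1, Kdr and Tek fell and Flt4 rose in GFP-AL against GFP-Veh. Nrp1 lies at chr8:128358823-128359072 on the plus strand, Kdr at chr5:75978456-75978705 on the minus strand, Flt4 at chr11:49609429-49609678 on the plus strand and Tek at chr4:94739039-94739288 on the plus strand. Each is written 5′ to 3′ along its gene, and the capitals mark matches on either strand to GGGCGG, the GC box that Sp1-family factors bind.
Nrp1: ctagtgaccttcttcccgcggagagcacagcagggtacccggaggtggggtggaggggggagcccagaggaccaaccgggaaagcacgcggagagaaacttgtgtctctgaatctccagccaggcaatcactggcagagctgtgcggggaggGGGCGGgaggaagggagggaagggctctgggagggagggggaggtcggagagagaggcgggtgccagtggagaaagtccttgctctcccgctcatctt
Kdr: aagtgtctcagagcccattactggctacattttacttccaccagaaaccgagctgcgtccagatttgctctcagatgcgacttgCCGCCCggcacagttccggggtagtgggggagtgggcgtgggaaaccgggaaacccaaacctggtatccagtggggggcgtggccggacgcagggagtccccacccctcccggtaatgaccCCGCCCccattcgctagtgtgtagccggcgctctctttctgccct
Flt4: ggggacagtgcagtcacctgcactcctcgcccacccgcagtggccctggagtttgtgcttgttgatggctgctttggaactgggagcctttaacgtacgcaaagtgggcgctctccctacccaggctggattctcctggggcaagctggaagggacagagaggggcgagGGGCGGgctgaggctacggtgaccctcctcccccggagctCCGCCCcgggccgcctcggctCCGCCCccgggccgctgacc
Tek: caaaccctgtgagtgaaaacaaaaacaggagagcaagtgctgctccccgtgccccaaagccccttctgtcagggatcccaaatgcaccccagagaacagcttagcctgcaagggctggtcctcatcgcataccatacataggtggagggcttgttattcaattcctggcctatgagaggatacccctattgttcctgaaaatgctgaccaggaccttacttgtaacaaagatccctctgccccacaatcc
The GC box occurred 3 times in the Flt4 window, 2 times in the Kdr window, 1 time in the Nrp1 window and not at all in the Tek window. It was present in 32.7% of 32851 promoter windows of this length. Matches to 5 other motifs, none overlapping a GC box match in these windows, were also sought on both strands: ACGTG, the core of the hypoxia response element, in 16.6% of windows; CAGGAAG, an ETS site, in 10.8%; GTAAACA, a forkhead site, in 3.17%; TTCNNNGAA, a STAT site, in 7.02%; and TGANTCA, an AP-1 site, in 6.75%. None of these 5 matched in the 4 windows shown. A match is only a run of letters in the reference, and its absence says only that those letters are not in this window. In the GENCODE annotation Nrp1 starts at 128358604 and Flt4 at 49609263, so their windows lie inside the genes. Each precedes a later start, the one that RefSeq annotates.

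The libraries differed in ways that the groups do not fully describe. Estimated depth was 18.04 to 31.7 M fragments (M for mega) in LH3-AL, 21.1 to 27.8 M for GFP-AL, and for GFP-Veh 13.6 to 16.0 M in replicates 1 to 4 with 29.8 M in replicate 5. On the leading axis of a principal component analysis, with 43.6% of the variance of log2 levels, GFP-AL replicates 2 and 3 scored 49.4 and 58.0 against 19.8 to 27.9 for the other GFP-AL libraries. GFP-Veh replicate 2 scored -4.13 against -27.1 to -19.3 for the other GFP-Veh libraries, and its summed level of 12 choroid plexus markers was 9478 FPKM against 3908 to 5155 FPKM. Calls of members that were lost without these 3 libraries are given with the value left. Plod3, the gene carried by the LH3 virus, averaged 21.6 ± 1.46 FPKM in LH3-AL, 13.9 ± 1.09 FPKM in GFP-AL and 16.8 ± 0.621 FPKM in GFP-Veh (SD, n = 5 each), and no 2 of the groups overlapped. Its log2 fold change was 0.60 in LH3-AL against GFP-AL (limma adjusted p = 0.000107) and -0.25 in GFP-AL against GFP-Veh (limma adjusted p = 0.0216). In LH3-AL against GFP-Veh it was 0.34 and did not pass (limma adjusted p = 0.0628). Groups did not overlap for 19.4%, 16.7% and 4.67% of all genes in these comparisons. Exons of Plod3 overlap Znhit1 on the opposite strand and Mir702 on the same strand. The strand setting of the counts is not given, so their reads cannot be told apart. Whether the Plod3 values count the transgene was not tested.

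All 20 endothelial markers on the list were tested, and none was below 0.05 FPKM in any library, a floor too low to check the vessel label. Their summed level ranged from 3531 to 5406 FPKM in LH3-AL, from 4820 to 6737 FPKM in GFP-AL and from 3803 to 5308 FPKM in GFP-Veh. The geometric mean of 8 of these 20 genes was 85.7 ± 14.5 FPKM in LH3-AL, 108 ± 10.6 FPKM in GFP-AL and 83.9 ± 7.82 FPKM in GFP-Veh. In GFP-AL against GFP-Veh 6 of the 8 passed as higher and 0 as lower, with a median log2 fold change of 0.38. Without the 3 libraries that stood apart 3 passed as higher. Of all 20 markers, 8 passed as higher and 3 as lower, with a median of 0.06, so the 8 rose more than the full list. Of all genes tested, 10.8% passed as higher and 17.7% as lower. In bulk samples fewer cells of a type and less RNA per cell cannot be told apart. Scaling each library to those 8 genes moved the median log2 fold change of all genes to -0.39 in GFP-AL against GFP-Veh and to 0.36 in LH3-AL against GFP-AL, where without it the medians were -0.09 and 0.08. Values under this scaling are given where a call turns on it.

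Per length of transcript, Flt1 was the highest of the members, with a mean of 193 FPKM over the 15 libraries, followed by Tie1 at 75.6, Tek at 56.9 and Kdr at 43.4 FPKM. Nrp1, Angpt2 and Flt4 averaged 29.1, 28.3 and 25.9 FPKM, and Vegfb 19.9 FPKM. Vegfa at 8.18 FPKM and Angpt1 at 3.53 FPKM were the lowest. Angpt2 was the third most abundant of the 10 in GFP-AL and the eighth in both LH3-AL and GFP-Veh, where neighbouring means such as those of Vegfb and Flt4 lay within their spread.

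**Figure D1:**
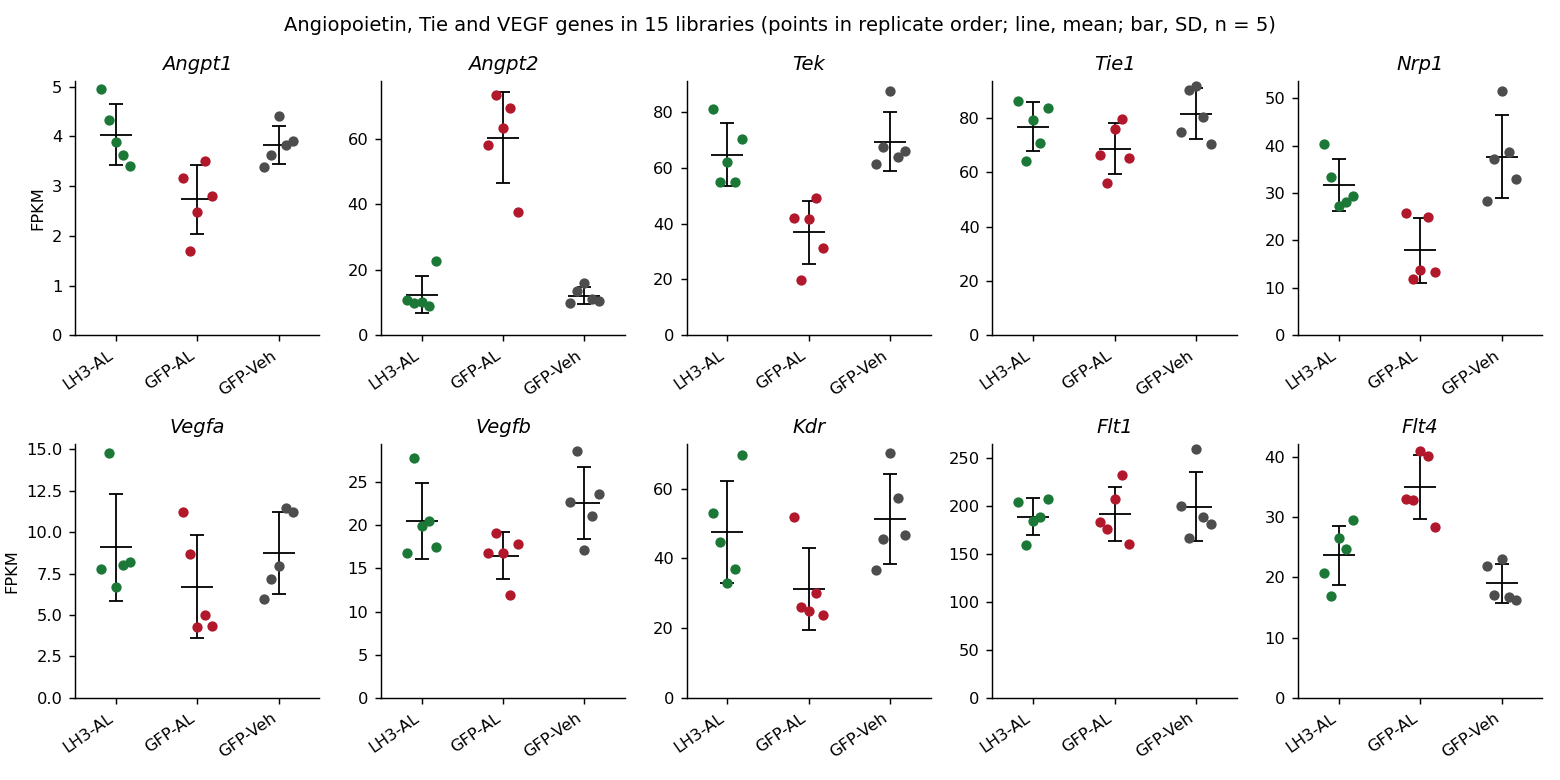
FPKM of the 10 members in each library, with LH3-AL, GFP-AL and GFP-Veh from left to right and linear axes from 0; points are libraries, lines are group means and error bars are SD (n = 5). The 5 GFP-AL libraries lie apart from both other groups for Angpt2 (37.7 to 73.4 FPKM) and for Tek and Nrp1 (at or below 49.3 and 25.8 FPKM).

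Among the ligands of Tek, Angpt2 had the largest change of any member. Its levels in LH3-AL replicates 1 to 5 were 10.8, 9.94, 10.0, 8.86 and 22.6 FPKM. In GFP-AL they were 58.1, 73.4, 63.2, 69.4 and 37.7 FPKM, and in GFP-Veh 9.83, 13.5, 15.8, 11.01 and 10.4 FPKM. The lowest GFP-AL library was above the highest library of either other group, and LH3-AL and GFP-Veh overlapped. LH3-AL replicate 5 had the highest level of its group and GFP-AL replicate 5 the lowest of its own. In GFP-AL against GFP-Veh the mean was 4.98 times as high, a log2 fold change of 2.21 ± 0.23 (SE; 95% interval 1.72 to 2.69; limma adjusted p = 1.82e-05). Between LH3-AL and GFP-AL the mean was 0.206 times as high, a log2 fold change of -2.24 ± 0.23 (-2.72 to -1.75; limma adjusted p = 2.49e-05). Ranked over the 13082 genes tested, Angpt2 was the 67th highest in GFP-AL against GFP-Veh and the 53rd lowest in LH3-AL against GFP-AL.

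The authors' deposited table for GFP-AL against GFP-Veh lists Angpt2 with a log2 fold change of 2.31 (q = 4.96e-22) and Nrp1 with -1.09 (q = 0.00158). The authors' deposited table that is named for LH3-AL against GFP-Veh lists Angpt2 at -2.28 (q = 5.16e-14). Over the 995 genes it shares with those tested, the fold changes of the authors' deposited table had the sign of LH3-AL against GFP-AL for 100% and the sign of LH3-AL against GFP-Veh for 56.2%, so the name of the table and its values are at odds.

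Angpt1, the activating ligand, had 4.95, 4.33, 3.88, 3.62 and 3.40 FPKM in LH3-AL replicates 1 to 5. It had 3.16, 1.70, 2.49, 3.50 and 2.80 FPKM in GFP-AL, and 3.38, 3.63, 4.402, 3.82 and 3.91 FPKM in GFP-Veh. GFP-AL was the lowest group on average, but its replicate 4 overlapped both of the others. The level fell in GFP-AL against GFP-Veh by 0.39 ± 0.13 on the log2 scale (SE; limma adjusted p = 0.0340) and rose by 0.45 ± 0.13 in LH3-AL against GFP-AL (limma adjusted p = 0.0194). The first call was lost in 12 of 24 alternatives. It was lost when any 1 of GFP-Veh replicates 3, 4 or 5 or GFP-AL replicates 2 or 3 was left out (limma adjusted p 0.0642 to 0.0794), with median-of-ratios scaling (limma adjusted p = 0.0743), and without the 3 libraries that stood apart (-0.23; limma adjusted p = 0.154). The second was lost without LH3-AL replicate 1 (limma adjusted p = 0.0553), without those 3 libraries (0.27; limma adjusted p = 0.0945) and under quantile normalization (limma adjusted p = 0.0612). An exon of Angpt1 overlaps Gm17473 on the opposite strand and the strand setting of the counts is not given, so their reads cannot be told apart.

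The ratio of Angpt2 to Angpt1, for which no test was made, was 2.18, 2.29, 2.59, 2.45 and 6.65 in LH3-AL replicates 1 to 5. In GFP-AL it was 18.4, 43.2, 25.4, 19.8 and 13.4, and in GFP-Veh 2.91, 3.73, 3.60, 2.88 and 2.66. Each GFP-AL library exceeded every LH3-AL and GFP-Veh library. The group means were 3.23 ± 1.92, 24.0 ± 11.5 and 3.15 ± 0.474 in LH3-AL, GFP-AL and GFP-Veh (SD, n = 5 each).

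**Figure D2:**
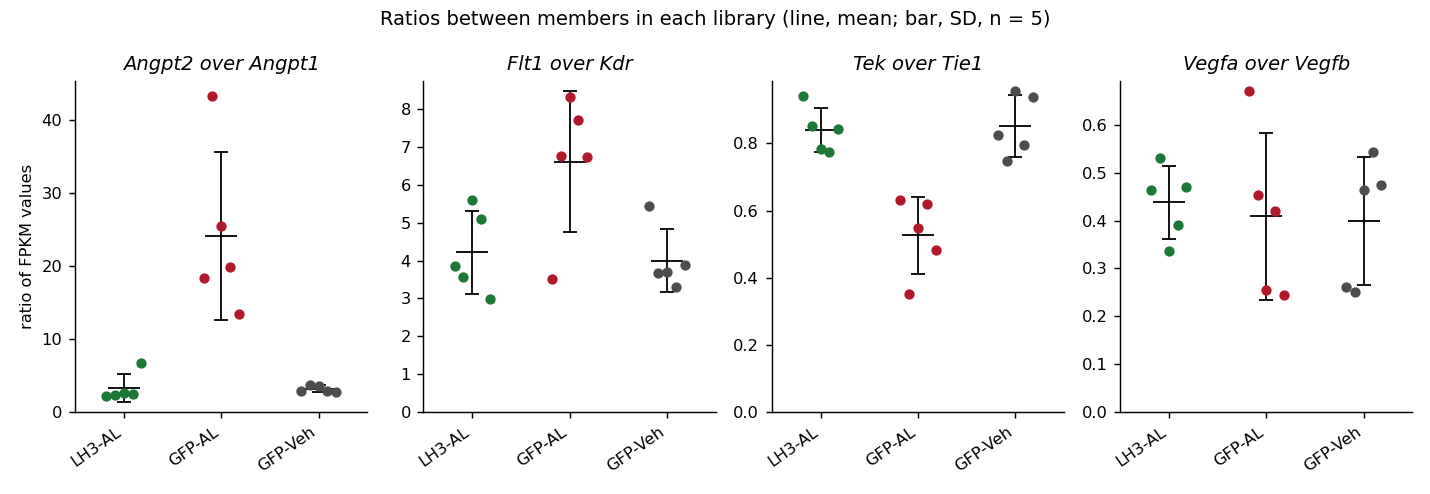
Ratios of FPKM within each library for Angpt2 to Angpt1, Tek to Tie1, Flt1 to Kdr and Vegfa to Vegfb, with LH3-AL, GFP-AL and GFP-Veh from left to right; points are libraries, lines are group means and error bars are SD (n = 5). GFP-AL libraries lie apart from both other groups for the angiopoietin ratio (13.4 to 43.2) and for the Tek to Tie1 ratio (0.353 to 0.631).

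Tek, the receptor of both angiopoietins, had 81.2, 54.8, 62.1, 54.8 and 70.4 FPKM in LH3-AL replicates 1 to 5. In GFP-AL it had 41.9, 19.8, 41.6, 49.3 and 31.4 FPKM, and in GFP-Veh 61.5, 67.3, 87.7, 63.9 and 66.0 FPKM. All 5 GFP-AL libraries were below every library of both other groups, and replicate 2 was the lowest. Tek fell in GFP-AL against GFP-Veh by 0.95 ± 0.20 on the log2 scale, to 0.531 of the GFP-Veh mean (limma adjusted p = 0.00285). It rose in LH3-AL against GFP-AL by 0.84 ± 0.20, to 1.76 times the GFP-AL mean (limma adjusted p = 0.00678).

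Tie1, a receptor with no angiopoietin of its own that forms complexes with Tek, averaged 76.8 ± 9.12 FPKM in LH3-AL, 68.7 ± 9.35 FPKM in GFP-AL and 81.5 ± 9.38 FPKM in GFP-Veh. Its log2 fold change was -0.25 in GFP-AL against GFP-Veh (95% interval -0.49 to 0.00; limma adjusted p = 0.126) and 0.16 in LH3-AL against GFP-AL (-0.09 to 0.41; limma adjusted p = 0.309). With the libraries scaled to endothelial genes, Tie1 passed in both, at -0.61 (limma adjusted p = 0.00176) and 0.51 (limma adjusted p = 0.00659), as it did under quantile normalization (limma adjusted p = 0.0153 and 0.0208). The ratio of Tek to Tie1 within a library was 0.839 ± 0.066 in LH3-AL, 0.527 ± 0.114 in GFP-AL and 0.852 ± 0.091 in GFP-Veh. Every GFP-AL library had a lower ratio than every library of the other groups.

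Nrp1, the co-receptor that binds VEGF and class 3 semaphorins, had 40.4, 33.4, 27.3, 28.1 and 29.4 FPKM in LH3-AL replicates 1 to 5. In GFP-AL it had 25.8, 11.8, 13.8, 24.9 and 13.3 FPKM, and in GFP-Veh 28.3, 37.1, 51.6, 38.6 and 32.9 FPKM. GFP-AL lay below both other groups without overlap, though its replicate 1, at 25.8 FPKM, lay close to the lowest LH3-AL library, at 27.3 FPKM. Nrp1 fell in GFP-AL against GFP-Veh by 1.08 ± 0.21 on the log2 scale, to 0.475 of the GFP-Veh mean (limma adjusted p = 0.00192). It rose in LH3-AL against GFP-AL by 0.85 ± 0.21, to 1.77 times the GFP-AL mean (limma adjusted p = 0.00978), a call that was lost without GFP-AL replicates 2 and 3 and GFP-Veh replicate 2 (0.59; limma adjusted p = 0.0871).

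Flt4, known mainly from lymphatic endothelium and from sprouting blood vessels, had 20.7, 17.0, 26.6, 24.7 and 29.5 FPKM in LH3-AL replicates 1 to 5. In GFP-AL it had 33.0, 32.8, 40.9, 40.1 and 28.4 FPKM, and in GFP-Veh 21.97, 17.1, 23.1, 16.8 and 16.2 FPKM. GFP-AL was above every GFP-Veh library, and its replicate 5 overlapped LH3-AL replicate 5. Flt4 rose in GFP-AL against GFP-Veh by 0.85 ± 0.15 on the log2 scale, to 1.84 times the GFP-Veh mean (limma adjusted p = 0.000893), and by 0.49 with the libraries scaled to endothelial genes (limma adjusted p = 0.00524). It fell in LH3-AL against GFP-AL by 0.56 ± 0.15, to 0.676 of the GFP-AL mean (limma adjusted p = 0.0141). That call was lost under endothelial scaling (-0.22; limma adjusted p = 0.144) and without the same 3 libraries (-0.51; limma adjusted p = 0.0640).

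Flt4 is also carried by lymphatic vessels, and markers of lymphatic endothelium and perivascular macrophages moved with it in part. Of 7 tested, 3 were higher and 1 lower in GFP-AL against GFP-Veh, or 5 and 1 without the 3 libraries. With all libraries, 10.8% of all genes tested were higher and 17.7% lower. The summed level of these markers was 44.0 to 62.5 FPKM in LH3-AL, 51.4 to 99.0 FPKM in GFP-AL and 35.3 to 52.4 FPKM in GFP-Veh. None of them was below 0.05 FPKM in any library. Lyve1, a hyaluronan receptor of both cell types, rose by 1.59 in GFP-AL against GFP-Veh, whereas Prox1, the transcription factor that defines lymphatic endothelium, fell by 0.60 (limma adjusted p = 0.00165 and 0.0132). The part of these cells in the Flt4 result was not tested.

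Kdr, the main signalling receptor for VEGF, had 53.1, 44.9, 32.9, 36.9 and 69.6 FPKM in LH3-AL replicates 1 to 5. In GFP-AL it had 51.9, 26.0, 24.8, 30.1 and 23.9 FPKM, and in GFP-Veh 36.8, 45.5, 70.3, 57.3 and 46.7 FPKM. GFP-AL replicate 1 lay within both other groups, and the other 4 GFP-AL libraries were below all of them. Kdr fell in GFP-AL against GFP-Veh by 0.72 ± 0.23 on the log2 scale (limma adjusted p = 0.0318). Between LH3-AL and GFP-AL its log2 fold change was 0.60 ± 0.23, with a 95% interval of 0.10 to 1.10, and did not pass (limma adjusted p = 0.0685). The fall was lost when any 1 of GFP-Veh replicates 3, 4 or 5 or GFP-AL replicates 2, 3 or 5 was left out (limma adjusted p 0.0508 to 0.0814). It was also lost without the 3 libraries that stood apart (-0.60; limma adjusted p = 0.160), with median-of-ratios scaling (limma adjusted p = 0.0549) and with depth as a covariate (limma adjusted p = 0.141). The change in LH3-AL against GFP-AL passed under endothelial scaling (0.94; limma adjusted p = 0.00956), under quantile normalization (limma adjusted p = 0.0443), and without GFP-AL replicate 1 (0.79; limma adjusted p = 0.0126) or LH3-AL replicate 3 (limma adjusted p = 0.0453).

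Flt1, which binds VEGF tightly and also exists as a soluble decoy, averaged 189 ± 19.3 FPKM in LH3-AL, 192 ± 28.1 FPKM in GFP-AL and 199 ± 36.0 FPKM in GFP-Veh. The values are per gene, so the membrane and soluble forms were not separated. Its log2 fold changes were -0.05 in GFP-AL against GFP-Veh (95% interval -0.33 to 0.23; limma adjusted p = 0.798) and -0.02 in LH3-AL against GFP-AL (-0.29 to 0.26; limma adjusted p = 0.938). Scaled to endothelial genes, Flt1 was lower in GFP-AL against GFP-Veh (-0.42; limma adjusted p = 0.0259). The ratio of Flt1 to Kdr averaged 4.22 ± 1.09 in LH3-AL, 6.62 ± 1.86 in GFP-AL and 3.997 ± 0.839 in GFP-Veh, and the groups overlapped through GFP-AL replicate 1.

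Of the VEGF ligands, Vegfa, which drives permeability and growth through Kdr, ranged from 6.68 to 14.8 FPKM in LH3-AL, from 4.28 to 11.2 FPKM in GFP-AL and from 5.94 to 11.5 FPKM in GFP-Veh. The groups overlapped, and the log2 fold changes of -0.39 in GFP-AL against GFP-Veh (95% interval -0.93 to 0.15; limma adjusted p = 0.269) and 0.43 in LH3-AL against GFP-AL (-0.12 to 0.97; limma adjusted p = 0.217) did not pass. The intervals reach to -0.93 and to 0.97 on the log2 scale, so the missed calls do not show that Vegfa was unchanged. Vegfb, a ligand of Flt1, averaged 20.5 ± 4.38 FPKM in LH3-AL, 16.5 ± 2.72 FPKM in GFP-AL and 22.6 ± 4.16 FPKM in GFP-Veh. It fell in GFP-AL against GFP-Veh by 0.43 ± 0.16 on the log2 scale (limma adjusted p = 0.0484). Between LH3-AL and GFP-AL it differed by 0.29 (limma adjusted p = 0.164), and by 0.63 under endothelial scaling, where it passed (limma adjusted p = 0.0271). The call against GFP-Veh was the weakest of the 7, since it was lost in 17 of 25 alternatives, among them leaving out any 1 of 12 of the 15 libraries (limma adjusted p 0.0509 to 0.114) and leaving out the 3 libraries that stood apart (-0.43; limma adjusted p = 0.0919). Of the single libraries, only the omission of GFP-Veh replicate 3, GFP-AL replicate 2 or LH3-AL replicate 2 kept it.

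**Figure D3:**
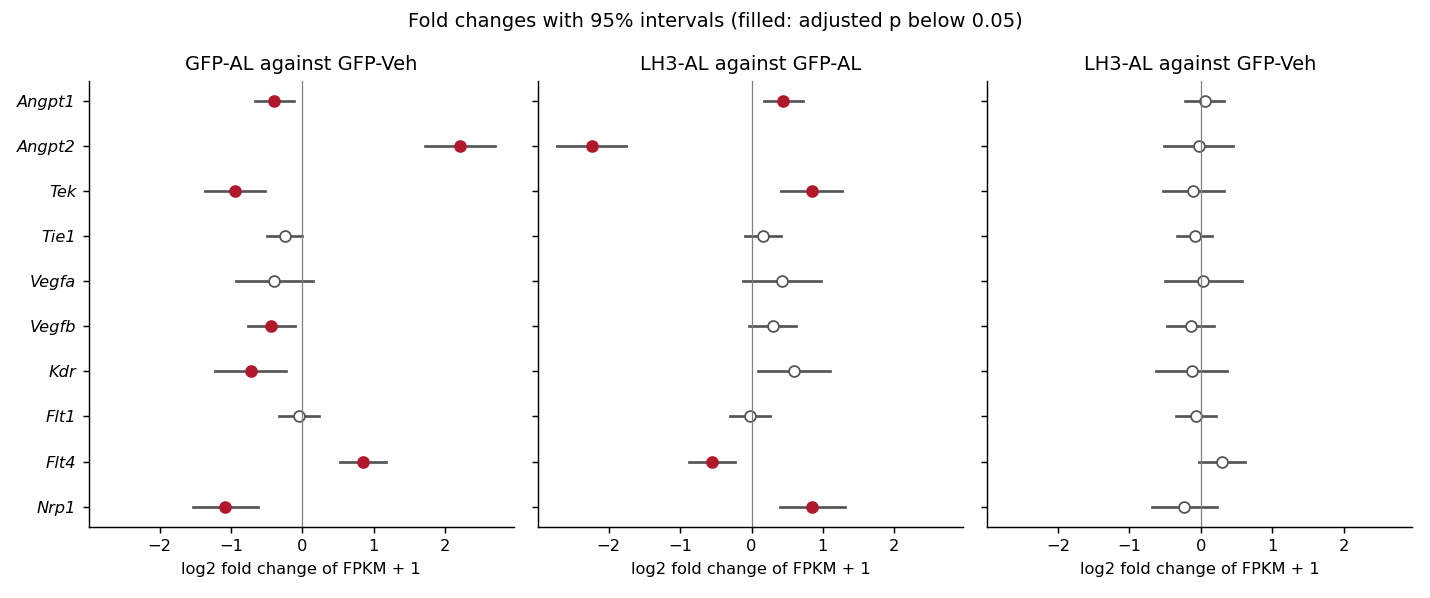
Log2 fold changes of the 10 members with 95% intervals, on the log2(FPKM + 1) scale, in GFP-AL against GFP-Veh, LH3-AL against GFP-AL and LH3-AL against GFP-Veh; filled points passed. Angpt2 stands at 2.21, -2.24 and -0.03 in these, and all 10 intervals of the last comparison include 0.

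In GFP-AL against GFP-Veh 7 of the 10 members passed, 2 higher and 5 lower, where 28.6% of all genes tested passed, 10.8% higher and 17.7% lower. The groups did not overlap for 4 of them, Angpt2, Flt4, Tek and Nrp1, against 16.7% of all genes. In LH3-AL against GFP-AL 5 members passed, 3 higher and 2 lower, where 28.5% of all genes passed, 17.0% higher and 11.4% lower. The groups did not overlap for 3 of them, Angpt2, Tek and Nrp1, against 19.4% of all genes. The median log2 fold change of the members was -0.39 in GFP-AL against GFP-Veh and 0.36 in LH3-AL against GFP-AL, beside -0.09 and 0.08 over all genes.

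The split of all calls depended on scaling. In GFP-AL against GFP-Veh 1416 genes were higher and 2321 lower, and with median-of-ratios scaling 1842 were higher and 1711 lower. In LH3-AL against GFP-AL 2227 were higher and 1496 lower, and with that scaling 1782 were higher and 1895 lower.

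The comparison of LH3-AL with GFP-Veh sets mice given the LH3 virus and the drugs beside mice given neither. None of the 10 members passed in it, and 0 had an unadjusted p below 0.05, where 0.52% of all genes passed. None of the 10 had groups that did not overlap, against 4.67% of all genes. Angpt2 differed by -0.03 on the log2 scale (95% interval -0.51 to 0.46), Tek by -0.10 (-0.53 to 0.32) and Nrp1 by -0.23 (-0.68 to 0.22). Flt4 had the largest difference of the 10, at 0.29 (-0.03 to 0.61; limma adjusted p = 0.611). A p that misses the threshold does not show equal levels, and the intervals of Vegfa (-0.51 to 0.58) and Kdr (-0.62 to 0.37) were wide.

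Among the other ligands of these families, 3 of 4 genes were tested, and Angpt4 lay under the filter. Pgf, a ligand of Flt1, had 7.26, 6.30, 9.51, 9.03 and 11.1 FPKM in LH3-AL replicates 1 to 5. In GFP-AL it had 47.7, 84.5, 32.7, 66.5 and 21.5 FPKM, and in GFP-Veh 5.27, 9.12, 6.25, 5.78 and 5.64 FPKM. As with Angpt2, every GFP-AL library was above both other groups. Pgf rose by 2.67 ± 0.29 on the log2 scale in GFP-AL against GFP-Veh (limma adjusted p = 2.13e-05) and fell by 2.29 ± 0.29 in LH3-AL against GFP-AL (limma adjusted p = 9.61e-05). Vegfc, the ligand of Flt4, went the other way from its receptor: it averaged 13.1 ± 5.04 FPKM in GFP-AL and 28.1 ± 10.8 FPKM in GFP-Veh, a log2 fold change of -1.03 ± 0.33 (limma adjusted p = 0.0281), which did not pass without the 3 libraries that stood apart. Between LH3-AL and GFP-AL, Vegfc differed by 0.29 (limma adjusted p = 0.522). Figf, the other Flt4 ligand, now named Vegfd, did not pass in either.

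Of 14 co-receptors and partners of the receptors, 4 were higher and 5 lower in GFP-AL against GFP-Veh, and 4 were higher and 2 lower in LH3-AL against GFP-AL. Without the 3 libraries these counts were 2 and 5, then 4 and 1. The median log2 fold changes were -0.24 and 0.28. Of all genes tested, 28.6% and 28.5% passed in these 2 comparisons. Itgav, the integrin subunit alpha v, averaged 1.22 ± 0.429 FPKM in GFP-AL and 5.83 ± 1.11 FPKM in GFP-Veh, a log2 fold change of -1.63 (limma adjusted p = 6.04e-06). It averaged 6.06 ± 0.656 FPKM in LH3-AL, 1.69 above GFP-AL on the log2 scale (limma adjusted p = 7.00e-06). Its partner Itgb3 and the fibronectin receptor subunit Itga5 fell by 0.76 and 0.55 in GFP-AL against GFP-Veh and rose by 1.08 and 0.40 in LH3-AL against GFP-AL (limma adjusted p at most 0.00378 in each).

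Ptprj, a phosphatase that acts on Kdr, rose by 0.70 in GFP-AL against GFP-Veh (limma adjusted p = 0.00416), and Mcam, a co-receptor of Kdr, fell by 0.52 in LH3-AL against GFP-AL (limma adjusted p = 0.00379). Ptprb, the phosphatase VE-PTP that dephosphorylates Tek, averaged 147 ± 21.8 FPKM in LH3-AL, 106 ± 27.0 FPKM in GFP-AL and 122 ± 24.6 FPKM in GFP-Veh, and passed in neither (limma adjusted p = 0.0556 for LH3-AL against GFP-AL, 0.365 for GFP-AL against GFP-Veh).

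The class 3 semaphorins compete with VEGF for neuropilins. Of 7, 4 were tested, and Sema3a, Sema3d and Sema3e lay under the filter. All 4 passed in both comparisons with GFP-AL, where 28.6% of all genes passed against GFP-Veh and 28.5% against LH3-AL. Sema3f rose by 0.94 and Sema3g by 0.58 in GFP-AL against GFP-Veh, while Sema3b fell by 0.53 and Sema3c by 0.60 (limma adjusted p = 0.000404, 0.0278, 0.00169 and 0.0462). The 4 went the opposite way with LH3-AL against GFP-AL: Sema3f fell by 0.69 and Sema3g by 0.54, while Sema3b rose by 0.29 and Sema3c by 0.71 (limma adjusted p = 0.00428, 0.0384, 0.0487 and 0.0224). Without the 3 libraries, 2 were higher and 1 lower in GFP-AL against GFP-Veh, and the counts were the same with median-of-ratios scaling. In LH3-AL against GFP-AL 0 were higher and 1 lower without the 3 libraries, and 1 and 2 with that scaling.

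Of 20 signal transducers tested of 22 listed, 5 were higher and 1 lower in GFP-AL against GFP-Veh, and 3 were higher and 6 lower in LH3-AL against GFP-AL. Their median log2 fold changes were -0.07 and 0.02, where those of all genes were -0.09 and 0.08. Of all genes tested, 28.6% passed in the first comparison, 10.8% higher and 17.7% lower. In the second 28.5% passed, 17.0% higher and 11.4% lower. Nos3, the endothelial nitric oxide synthase that L-NAME inhibits and that VEGF signalling activates, averaged 97.1 ± 18.5 FPKM in LH3-AL, 170 ± 23.0 FPKM in GFP-AL and 111 ± 11.04 FPKM in GFP-Veh. It rose by 0.60 in GFP-AL against GFP-Veh (limma adjusted p = 0.00482) and fell by 0.81 in LH3-AL against GFP-AL (limma adjusted p = 0.000844). The kinase Akt1 and the adaptor Shc1 rose by 0.43 and 0.42 in GFP-AL against GFP-Veh (limma adjusted p = 0.00345 and 0.00115). Tnip2, which binds Tek, rose by 0.33 in GFP-AL against GFP-Veh and fell by 0.48 in LH3-AL against GFP-AL, and the Kdr adaptor Shb fell by 0.63 in LH3-AL against GFP-AL (limma adjusted p at most 0.0125).

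Of 15 genes known to be induced by VEGF in endothelial cells, which include the members Flt1 and Angpt2, 5 were higher and 0 lower in GFP-AL against GFP-Veh, and 0 were higher and 6 lower in LH3-AL against GFP-AL. The medians were 0.32 and -0.84, and without the 3 libraries 3 were higher in the first comparison and 5 lower in the second. With all libraries, 28.6% and 28.5% of all genes tested passed in these 2 comparisons. Beside Angpt2, Fosl1, an AP-1 subunit, rose by 2.75 in GFP-AL against GFP-Veh and Ptgs2, the inducible cyclooxygenase, rose by 2.42. Adamts1, a protease that binds VEGF, rose by 1.63 in that comparison and fell by 2.78 in LH3-AL against GFP-AL. Dll4, the Notch ligand of tip cells, averaged 24.2 ± 6.00 FPKM in LH3-AL, 58.9 ± 14.9 FPKM in GFP-AL and 38.1 ± 5.46 FPKM in GFP-Veh, and fell by 1.24 in LH3-AL against GFP-AL (limma adjusted p = 0.000499).

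Tip cell genes, which mark the leading endothelial cell of a sprout, gave the largest medians of the pathway lists. The lists were chosen with earlier results of these data known, so that ranking is only a description. Of 12 tip cell genes, 9 were higher and 0 lower in GFP-AL against GFP-Veh, or 7 and 0 without the 3 libraries. The median log2 fold change was 1.35. Among all genes tested, 10.8% were higher and 17.7% lower with every library kept. The tip cell genes share Dll4 with the previous list and Adm with the genes of the hypoxia-inducible factors, given last. Against GFP-AL, LH3-AL vessels had 1 higher and 9 lower, with a median of -1.40, and without the 3 libraries 0 higher and 8 lower. The shares over all genes there, with every library kept, were 17.0% higher and 11.4% lower. Apln, the ligand apelin, averaged 9.82 ± 6.02 FPKM in LH3-AL, 55.4 ± 24.1 FPKM in GFP-AL and 6.69 ± 0.883 FPKM in GFP-Veh. It rose by 2.78 in GFP-AL against GFP-Veh (limma adjusted p = 2.02e-05) and fell by 2.42 in LH3-AL against GFP-AL (limma adjusted p = 8.65e-05). Ramp3, a subunit of the adrenomedullin receptor, and its ligand Adm rose by 2.32 and 2.82 in GFP-AL against GFP-Veh, and Igfbp3, a binding protein for insulin-like growth factors, rose by 2.60.

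Plaur, the urokinase receptor, fell by 3.47 in LH3-AL against GFP-AL and was the 1 gene of these pathway lists to pass in LH3-AL against GFP-Veh, where it fell by 1.59 (limma adjusted p = 0.0204). The 1 tip cell gene that was higher in LH3-AL against GFP-AL was Pdgfb, the platelet-derived growth factor that recruits pericytes, at 0.54 (limma adjusted p = 0.0159). Cxcr4, the chemokine receptor of tip cells, fell by 1.19 in LH3-AL against GFP-AL. Leukocytes also express Cxcr4 and Plaur, and markers of those cells are given next.

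**Figure D4:**
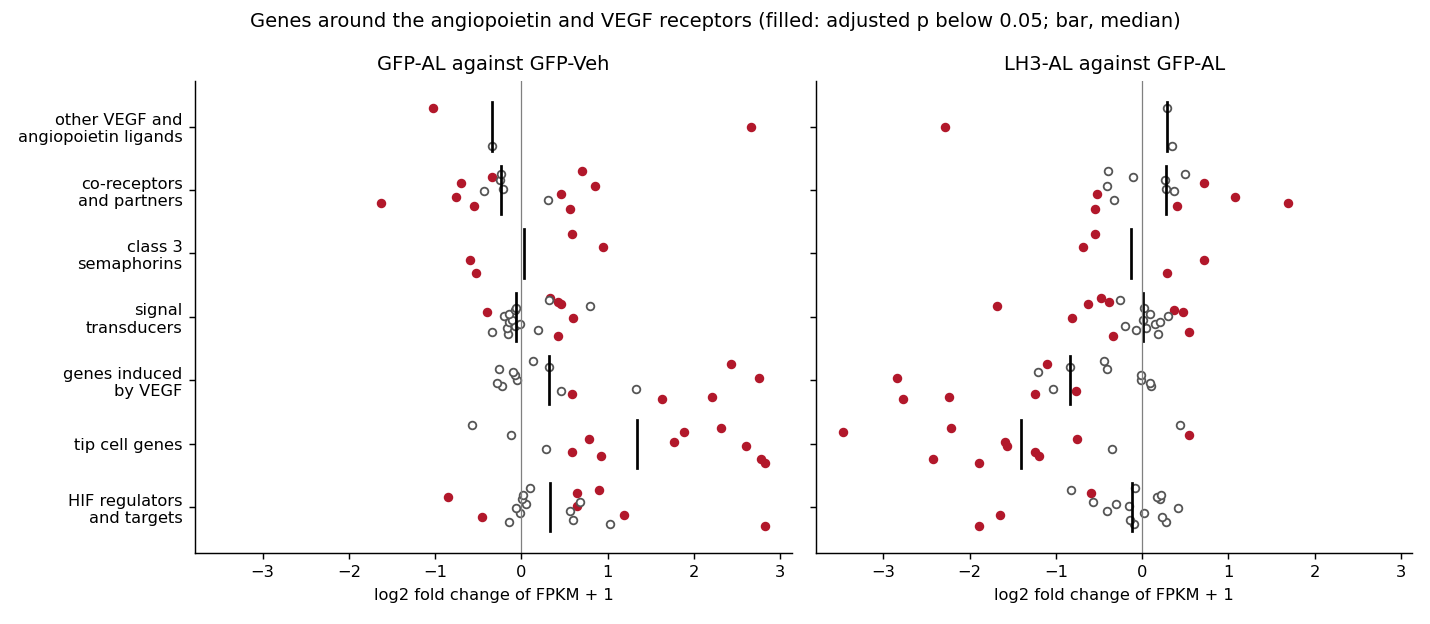
Log2 fold changes of the genes in each list of ligands, partners, transducers and responding genes, in GFP-AL against GFP-Veh and LH3-AL against GFP-AL; points are genes, filled where the gene passed, and bars are list medians. The tip cell medians are 1.35 and -1.40.

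Markers of several other cells also passed. Beside their counts, 28.6% of all genes tested passed in GFP-AL against GFP-Veh and 28.5% in LH3-AL against GFP-AL. In LH3-AL against GFP-Veh 0.52% passed, with 0.145% higher. Of 12 markers of microglia and macrophages 8 were higher and 0 lower in GFP-AL against GFP-Veh, and 0 were higher and 9 lower in LH3-AL against GFP-AL, with summed levels of 297 to 348 FPKM in LH3-AL, 624 to 1006 FPKM in GFP-AL and 231 to 494 FPKM in GFP-Veh. Of 10 markers of venous or activated endothelium 6 were higher and 1 lower in GFP-AL against GFP-Veh, and 1 was higher and 6 lower in LH3-AL against GFP-AL. Their summed levels were 232 to 474 FPKM in LH3-AL, 543 to 1091 FPKM in GFP-AL and 139 to 198 FPKM in GFP-Veh. Every LH3-AL library was thus above every GFP-Veh library, and 1 of the 10, Lrg1, passed as higher in LH3-AL against GFP-Veh. Neutrophil markers were higher for 5 of 9 in GFP-AL against GFP-Veh and lower for 7 of 9 in LH3-AL against GFP-AL. Red cell markers were higher for 7 of 7 in GFP-AL against GFP-Veh, 0 of 7 passed in LH3-AL against GFP-AL, and 3 of 7 were higher in LH3-AL against GFP-Veh, or 6 without the 3 libraries. Of these markers, Sele was below 0.05 FPKM in 1 GFP-Veh library and Ly6g in 1 GFP-AL library, and the others were above that level in all 15.

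Pericytes, the main source of Angpt1, had 4 of 12 markers lower and 0 higher in GFP-AL against GFP-Veh, or 1 lower and 1 higher without the 3 libraries and 2 lower with median-of-ratios scaling, and summed levels of 1414 to 1739 FPKM in LH3-AL, 879 to 1499 FPKM in GFP-AL and 1467 to 1867 FPKM in GFP-Veh. Choroid plexus markers were lower for 9 of 12 in GFP-AL against GFP-Veh and higher for 9 of 12 in LH3-AL against GFP-AL. Without the 3 libraries these were 6 and 8. Their summed levels were 3333 to 5515 FPKM in LH3-AL, 2092 to 3238 FPKM in GFP-AL and 3908 to 9478 FPKM in GFP-Veh. Every GFP-AL library was thus below every library of the other groups. Astrocyte markers, whose cells make Vegfa, were higher for 1 and lower for 5 of 12 in GFP-AL against GFP-Veh, or 1 and 3 without the 3 libraries. Oligodendrocyte markers were lower for 7 of 12 in GFP-AL against GFP-Veh. Of the 20 endothelial markers 8 were higher and 3 lower in GFP-AL against GFP-Veh, or 4 and 1 without the 3 libraries. The part of these cells in the members' results was not tested.

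**Figure D5:**
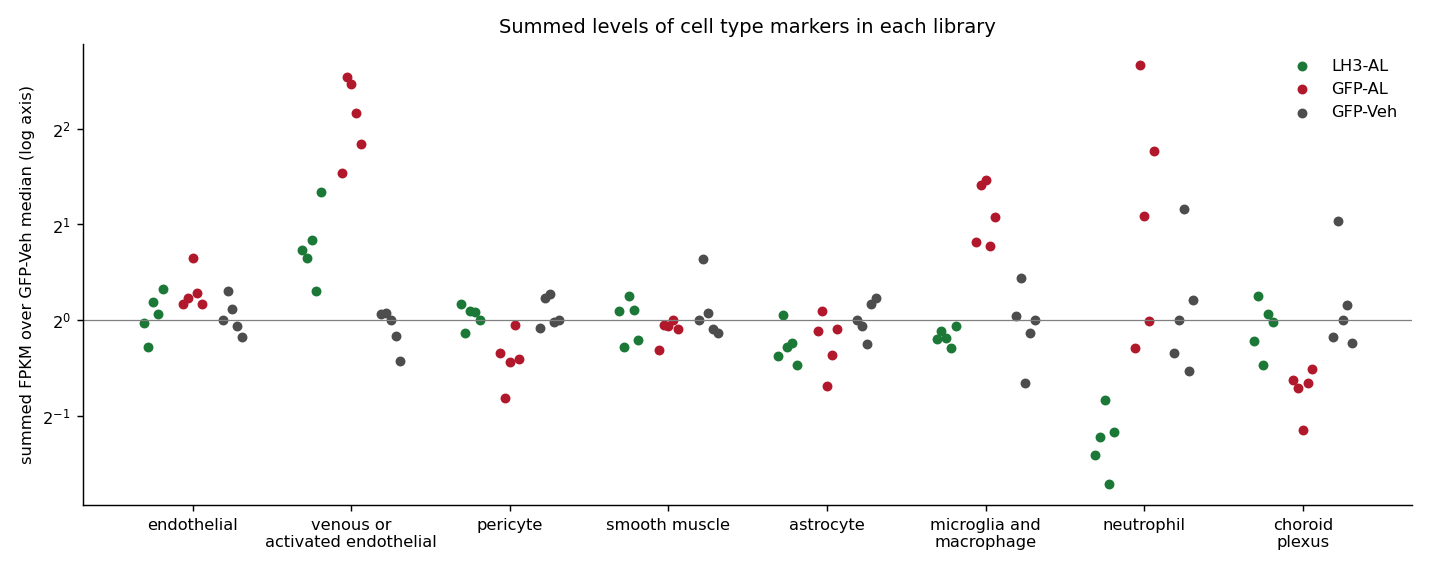
Summed FPKM of 8 cell type marker lists in each library, divided by the GFP-Veh median of the list and on a log axis, with LH3-AL, GFP-AL and GFP-Veh from left to right; points are libraries. The venous or activated endothelial list is at 232 to 474 FPKM in LH3-AL, 543 to 1091 FPKM in GFP-AL and 139 to 198 FPKM in GFP-Veh, with no overlap.

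The genes whose pattern over the 15 libraries was most like each member were found by the mean absolute difference of log2(FPKM + 1) after standardisation, among 12248 genes. For Angpt2 they were Tnfsf8, Ino80c and Upp1, at 0.135, 0.164 and 0.169 SD. Ldlrad3, Ebf1 and Cav2 were nearest to Tek, at 0.195 to 0.222 SD, and Acad11, Far2 and Tnfrsf19 to Nrp1, at 0.226 to 0.234 SD. Pecam1, an adhesion protein of endothelial junctions, was nearest to Flt4 at 0.194 SD, followed by Timp3 and Igfbp3. Tnfsf8 averaged 0.643 FPKM in LH3-AL, 14.2 FPKM in GFP-AL and 0.297 FPKM in GFP-Veh. Like Angpt2 it was highest in GFP-AL, at a lower level.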

How the data were processed

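Cerebral vessels were isolated from perfused brains by homogenisation and low-speed spins, after the pia mater and choroid plexus had been cleared, per the labels' protocols. STAR 2.5.1b and mm8 stand in the submitters' processing notes; the sources used here do not give how reads were counted or with which strand setting and annotation. The authors deposited FPKM for 22557 gene identifiers, and 5.99% of these values lie below 0 (lowest -0.465), by an unstated step; they were set to 0. Rows sharing a symbol (31 symbols) were summed. The authors also deposited tables of selected genes with log2 fold changes and with p-values and q-values, per the file headers.

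The size of 1 read, read from the steps between low FPKM values, gave an estimate of depth. Too few values were whole reads for a count test, so depth served as a description and a covariate. Levels on the log2(FPKM + 1) scale, which understates changes of low genes, were fitted with limma 3.58.1 (R 4.3.3), with group means over 15 libraries, a trended prior and the 13082 genes averaging 1 FPKM or more. P-values were Benjamini-Hochberg adjusted over all genes, with calls below 0.05. The procedure was tested on simulated data. Positions are those of GRCm38 (22419 identifiers matched), not converted from mm8.

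Named genes were the 10 members, Plod3, up to 4 called genes of smallest p per list and comparison, and the 3 genes most like each member. Ptprb, Pdgfb, Vegfc, Figf, Lyve1 and Prox1 were also named where they fell outside this rule, after their values were seen. Members, lists and the 3 libraries that stood apart were chosen with earlier results of these data known. Alternatives were another pseudocount, filter or scaling, groups fitted alone, depth or replicate number as a term, and libraries left out.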

Additional observations from a re-analysis of the deposited data

Results flagged for a closer look

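Of 30 groups of 5 libraries tested, 10 members in 3 groups, 4 held a library far from the other 4 by Dixon's criterion; chance alone flags about 1 in 20 groups. Angpt2 was 22.6 FPKM in LH3-AL replicate 5, against 8.86 to 10.8 FPKM in the other LH3-AL libraries; without it the log2 fold change in LH3-AL against GFP-AL was -2.46 instead of -2.24. Kdr was 51.9 FPKM in GFP-AL replicate 1, against 23.9 to 30.1 FPKM in the other GFP-AL libraries. Without that library Kdr differed by -0.91 in GFP-AL against GFP-Veh (limma adjusted p = 0.00548) and by 0.79 in LH3-AL against GFP-AL (limma adjusted p = 0.0126). Vegfa was 14.8 FPKM in LH3-AL replicate 2, and without it the log2 fold change in LH3-AL against GFP-AL was 0.26 (limma adjusted p = 0.469). Tek was 87.7 FPKM in GFP-Veh replicate 3, and without it Tek differed by -0.86 in GFP-AL against GFP-Veh (limma adjusted p = 0.00912).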

How the results depend on the processing

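Over the 10 members in the 3 comparisons, 665 of 747 alternative values kept direction and call, 45 kept direction but lost the call and 10 gained one. The other 27 changed sign without passing before or after (-0.19 to 0.33): 12 of Flt1, and 15 of Angpt1, Angpt2, Tie1 and Vegfa in LH3-AL against GFP-Veh. Angpt2 and Tek kept their calls in both comparisons with GFP-AL under every alternative run, with log2 fold changes of 1.85 to 2.37 and -1.31 to -0.75 in GFP-AL against GFP-Veh; Nrp1 and Flt4 did so in GFP-AL against GFP-Veh. The 5 lower members in GFP-AL against GFP-Veh became 3 with no filter, with 2 groups fitted alone and with the replicate block, and 2 with median-of-ratios scaling, with depth as a covariate and without GFP-AL replicates 2 and 3 and GFP-Veh replicate 2. In LH3-AL against GFP-AL the 3 higher members became 6 under endothelial scaling and 1 without those libraries, and the 2 lower members became 1 under each. All genes called in GFP-AL against GFP-Veh, 3737, became 2174 with a 5 FPKM filter (fewer genes tested), 5966 under endothelial scaling and 2378 with depth; in LH3-AL against GFP-AL 3723 became 2109 with that filter. In LH3-AL against GFP-Veh 68 became 176 with 2 groups alone, 4 with depth, 31 with the replicate block and 158 without the 3 libraries. The cause was not tested. With 1 library left out, all genes called ranged from 2840 to 4437, 2658 to 4291 and 27 to 110 in the 3 comparisons, higher members from 2 to 2, 2 to 4 and 0 to 0, and lower members from 2 to 5, 2 to 2 and 0 to 0.

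Correlations of deviations between same-numbered libraries ran from -0.26 to 0.29. The labels do not say what the replicate number marks, and 5 libraries per group are too few to exclude a pairing. With the replicate block 3783 and 3879 genes were called in the comparisons with GFP-AL, and Angpt1 and Kdr were not called in GFP-AL against GFP-Veh. Counts were not recovered, so no counting interval can be given and the part of depth in what was detectable was not tested.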

Other observations

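Genes of the hypoxia-inducible factors, which control Vegfa in many tissues, were mixed. Of 18 regulators and targets, 5 were higher and 2 lower in GFP-AL against GFP-Veh, and 0 were higher and 3 lower in LH3-AL against GFP-AL. With median-of-ratios scaling the counts were 7 and 1, then 0 and 5. Without that scaling, 28.6% and 28.5% of all genes tested passed in these 2 comparisons. Hif1a, the oxygen-regulated subunit, averaged 18.4 ± 2.12 FPKM in LH3-AL, 20.7 ± 3.15 FPKM in GFP-AL and 12.9 ± 2.22 FPKM in GFP-Veh (SD, n = 5 each), and rose by 0.65 in GFP-AL against GFP-Veh (limma adjusted p = 0.00183). Ddit4, a stress-induced inhibitor of mTOR, rose by 1.18 in that comparison and fell by 1.65 in LH3-AL against GFP-AL. P4ha1, a collagen prolyl hydroxylase, fell by 0.85 in GFP-AL against GFP-Veh, with 11.6 ± 1.04 FPKM in LH3-AL, 10.7 ± 4.22 FPKM in GFP-AL and 19.1 ± 1.23 FPKM in GFP-Veh. Vegfa itself passed in none of the 3 comparisons.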
